A study of Homo sapiens with 24 samples.

Results

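Genes of the heat shock protein network of the cytosol and the mitochondrion were followed in 4 human cancer cell lines treated with melatonin. The genes were chosen by name among chaperones and co-chaperones of these compartments, with earlier results of these data known. Counts of the chosen genes beside shares of all genes are therefore descriptive. HSPA1A and HSPA1B are outside the set and stand in a list of related genes. The set holds 10 genes of the 18265 measured: HSP90AA1, HSP90AB1, HSPA8, HSPA4, HSPH1, DNAJB1, BAG3, HSPD1, HSPE1 and HSPB1. They were read by 38 of the 45336 probe sets that the array annotation pairs with 1 gene symbol, and each gene's value is the mean of its probe sets. All 10 genes were measured in every line, and no filter on low values was set.

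RNA was measured on 24 customized PrimeView arrays, 1 per sample, with 3 melatonin arrays and 3 control arrays in each line. The melatonin groups were HGC-27 (gastric carcinoma), HCT-8 (colorectal carcinoma), Huh-7 and HepG2 (both hepatocellular carcinoma) cells given melatonin at 2.5 mmol/L over 24 h, and each line was compared with its own control cells. By the study's methods the control cells spent the same time with the solvent ethanol, but the labels give them 0 h, so melatonin, solvent and time in culture cannot be told apart by label. The methods name 3 biological replicates, without saying whether these were separate passages, so p-values measure the spread between such samples. Values are deposited log2 intensities, a change is melatonin minus control on that scale, and a gene was called when its limma p, adjusted over all genes by Benjamini-Hochberg, was below 5%. Levels were not compared between genes or between lines, because probe sets differ in brightness and the lines appeared to have been normalized separately. In bulk RNA, a smaller number of cells of one kind and less RNA per cell cannot be told apart.

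A single array, melatonin replicate 1 of HepG2, was unlike the rest. The 3′ probe set of ACTB exceeded the 5′ probe set by 8.34 on the log2 scale on this array and by 0.08 to 0.72 on the other 23 arrays. This gap is read as a measure of RNA quality and labelling, and its part in each result was not tested. Its correlation over genes with the other HepG2 arrays was 0.94 to 0.95. The HepG2 changes of the 10 genes with the deposited scaling and most HepG2 counts are therefore given with this array and without it. Unless marked otherwise, a HepG2 value of a related gene that stands alone was taken with all arrays, this array included. The hepatocyte markers lay above the median of all genes in 7 of 7 cases in Huh-7 and in HepG2 control cells, and HCT-8 control cells had 4 of 4 epithelial and 5 of 6 intestinal markers above it. HGC-27 control cells had 0 of 4 epithelial markers and 0 of 3 stomach markers above the median, so their labelled epithelial origin was not visible in these markers. Of 6 markers of other cell types, 2 lay above the median in HGC-27 cells. These were the fibroblast markers LUM and COL1A1, at the 97.66 and 86.27 percentiles in controls. In Huh-7 cells 3 of 6 intestinal and 2 of 3 stomach markers also lay above the median, as did 2 of 3 stomach markers in HCT-8 cells. CD14 and PECAM1, markers of other cell types, lay at the 58.71 and 59.52 percentiles in Huh-7 controls. CDX2 in HGC-27, VIL1 in HepG2 and SERPINA1 in HCT-8 controls also lay above the median (62.38, 83.87 and 62.54). In HepG2 cells 3 of 4 epithelial markers lay above it, with CDH1 at the 47.21 percentile in controls.

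Heat shock proteins are chaperones that bind other proteins while these fold, are held ready for activation or are sent for degradation. Cytosolic HSP70 binds short stretches of unfolded chain with the help of J-domain proteins, is reset by nucleotide exchange factors such as the HSP110 and BAG proteins, and hands part of its clients to HSP90. In mitochondria, HSP60 and its lid HSP10 form a folding chamber. Many of these genes carry heat shock elements, which are repeated GAA units that the transcription factor HSF1 binds under stress, and cancer cells often keep them at high levels without heat.

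The start regions of 6 genes are printed because the changes of these genes went in different directions or differed in size, so that the presence of heat shock elements can be read beside each change. Each line gives the 250 bases before an annotated start site, 5′ to 3′ on the strand of the gene, taken from RefSeq on GRCh38.p14. HSP90AA1, DNAJB1 and HSPD1 have 2, 3 and 2 annotated windows. For each of them a window with heat shock elements is printed, and another window of the same gene held none. HSPH1, which had none in its window, is not printed although its changes went in different directions. Capitals mark letters of a heat shock element, either GAANNTTC or TTCNNGAA, searched on both strands (each pattern reads the same on both), and overlapping matches are joined.
HSP90AA1 (chr14:102087045-102087294, minus strand): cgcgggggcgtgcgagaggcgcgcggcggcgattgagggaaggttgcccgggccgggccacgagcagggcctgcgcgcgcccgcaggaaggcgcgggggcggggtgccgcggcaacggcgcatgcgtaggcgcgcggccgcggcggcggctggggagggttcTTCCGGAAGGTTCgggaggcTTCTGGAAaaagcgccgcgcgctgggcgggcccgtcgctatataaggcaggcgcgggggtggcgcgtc
HSPA8 (chr11:123062137-123062386, minus strand): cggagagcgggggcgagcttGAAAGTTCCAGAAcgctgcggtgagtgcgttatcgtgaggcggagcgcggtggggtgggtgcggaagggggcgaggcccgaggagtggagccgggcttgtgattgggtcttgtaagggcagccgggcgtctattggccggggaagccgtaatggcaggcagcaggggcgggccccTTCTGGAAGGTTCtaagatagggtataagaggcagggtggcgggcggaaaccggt
DNAJB1 (chr19:14518398-14518647, minus strand): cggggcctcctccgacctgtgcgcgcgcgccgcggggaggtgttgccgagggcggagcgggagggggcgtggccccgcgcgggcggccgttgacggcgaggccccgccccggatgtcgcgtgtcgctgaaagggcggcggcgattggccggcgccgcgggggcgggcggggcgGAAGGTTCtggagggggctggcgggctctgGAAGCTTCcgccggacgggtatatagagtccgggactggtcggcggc
HSPD1 (chr2:197499841-197500090, minus strand): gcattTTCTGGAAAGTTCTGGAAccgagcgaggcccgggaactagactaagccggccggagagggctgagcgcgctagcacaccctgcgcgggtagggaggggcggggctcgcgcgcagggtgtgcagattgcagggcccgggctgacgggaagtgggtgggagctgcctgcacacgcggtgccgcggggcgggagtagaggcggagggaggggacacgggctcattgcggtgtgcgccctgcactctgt
HSPE1 (chr2:197500129-197500378, plus strand): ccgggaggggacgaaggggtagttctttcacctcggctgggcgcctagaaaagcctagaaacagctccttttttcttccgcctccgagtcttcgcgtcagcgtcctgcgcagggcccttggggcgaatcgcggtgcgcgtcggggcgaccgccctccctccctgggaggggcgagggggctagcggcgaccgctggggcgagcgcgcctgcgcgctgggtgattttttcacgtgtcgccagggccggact
HSPB1 (chr7:76302423-76302672, plus strand): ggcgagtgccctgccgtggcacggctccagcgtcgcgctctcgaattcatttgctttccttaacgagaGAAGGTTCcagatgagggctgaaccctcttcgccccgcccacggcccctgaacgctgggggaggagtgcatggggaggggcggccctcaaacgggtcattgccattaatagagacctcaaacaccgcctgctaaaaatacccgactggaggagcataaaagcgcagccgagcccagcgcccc

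RefSeq held 16 windows of 300 bases (250 before and 50 after a start site) for the 10 genes, and 1 of the forms GAANNTTC or TTCNNGAA was present in 7 of the 16, belonging to 6 genes. Over all 35116 windows of that length the share was 13.5%. The longer pattern GAANNTTCNNGAA, 3 joined units on either strand, was found in HSP90AA1, HSP90AB1, HSPA8 and HSPD1 and in 0.49% of all windows. HSPB1 and DNAJB1 had only the shorter form. HSPA4, HSPH1, HSPE1 and BAG3 had none of these letters in their windows, which says nothing about elements elsewhere or about binding. The printed stretches of HSP90AA1, HSPA8, DNAJB1 and HSPD1 lie inside the annotated span of their own gene, downstream of its outermost start, and those of HSPB1 and HSPE1 lie just outside it. HSPD1 and HSPE1 are neighbours on chromosome 2 that run in opposite directions, with the outer HSPD1 start 105 bases from the HSPE1 start. The HSPE1 stretch thus runs over the 5′ end of HSPD1. The capitals in the HSPD1 stretch end 294 bases before the HSPE1 start, so the windows of HSPE1 did not reach them.

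Of the 10 heat shock protein genes, most were called lower with melatonin in HGC-27 and Huh-7 cells, and fewer in HCT-8 cells and, with all arrays, in HepG2 cells. In HGC-27 cells 7 of 10 fell and 1 rose, where 18.7% of all genes were lower and 20.9% higher. In HCT-8 cells 4 fell and 2 rose, against 15% of all genes lower and 16.6% higher. In Huh-7 cells 8 fell and 1 rose, against 27.4% lower and 23.8% higher. In HepG2 cells 3 fell and 0 rose by limma, where 3.67% of all genes were lower and 3.87% higher (5 and 0 of the 10 at an unadjusted p below 5%, and 2 and 0 by the methods' t-test). The shares of 3.67% and 3.87% belong to the limma calls alone. The methods' test called 271 of all 18265 genes lower and 252 higher in HepG2 cells, also where it is named below. Counts at an unadjusted p below 5%, here and below, have no share of all genes beside them. Without melatonin replicate 1, 7 fell and 0 rose in HepG2 cells by limma, against 14.9% of all genes lower and 16.4% higher.

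The median change over the 10 genes was -0.43 in HGC-27 cells, beside -0.01 over all genes, and -0.55 in Huh-7 cells, beside -0.06. It was -0.14 in HCT-8 cells, beside -0.03 over all genes, and -0.59 in HepG2 cells, beside 0.04 (-0.44, beside 0.01, without melatonin replicate 1). HSP90AA1, HSPE1 and HSPB1 were lower in all 4 lines, as were 1.49% of all genes, although in HCT-8 cells none of the 3 passed when the arrays were centred on the ERCC spike-in and HSP90AA1 then lay above 0. DNAJB1 was higher in the 3 lines other than HepG2, as were 8.38% of all genes, and in the joint fit of all 24 arrays it was not called in any of these. The melatonin arrays lay wholly below the controls for 7 of the 10 genes in HGC-27 and in HCT-8 cells (24.2% of all genes in each line), 8 in Huh-7 cells (33.2%) and 9 in HepG2 cells (15.1%). They lay wholly above for 1 in HGC-27 (24.8% of all genes), 2 in HCT-8 cells (21.5%), 1 in Huh-7 cells (26.3%) and 0 in HepG2 cells (20.4%).

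**Figure D1:**
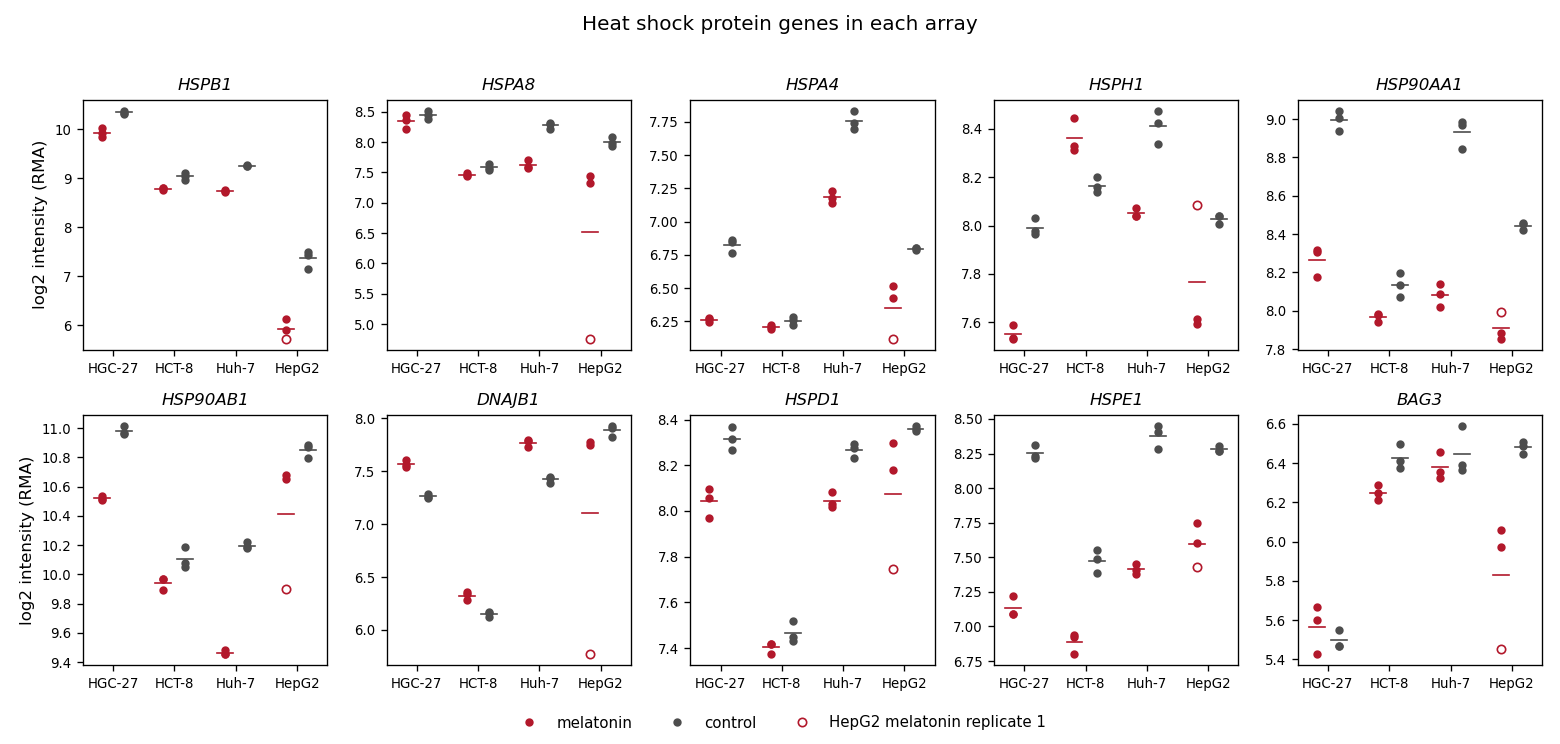
Log2 intensity of the 10 heat shock protein genes on each of the 24 arrays, with melatonin arrays in red left of the control arrays in grey for each line, and a bar at the mean of 3. The open circle is HepG2 melatonin replicate 1, which read 4.76 for HSPA8 and 5.78 for DNAJB1, while the other melatonin arrays of that line lay close to each other. The vertical scale differs between genes.

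The counts in HCT-8 and HepG2 cells moved when single arrays were left out. In HCT-8 cells HSPB1 and HSPE1 stayed called whichever array was left out, whereas HSP90AA1 and HSPH1 stayed called only without control replicate 2, BAG3 only without control replicate 3 and DNAJB1 only without melatonin replicate 1, so that 2 or 3 genes were lower and 0 or 1 higher. In these settings HCT-8 cells had 1888 to 2592 of all 18265 genes lower and 2349 to 2772 higher. In HepG2 cells leaving out any 1 control array left 0 lower, with adjusted p of 0.0565 to 0.104 for HSPB1, HSP90AA1 and HSPE1. Only 15 to 23 of all 18265 genes were lower there without 1 control array, so few genes of any kind were called. Leaving out melatonin replicate 2 left HSPB1 alone (181 of all genes lower), and leaving out melatonin replicate 3 left all 3 (478 of all genes lower).

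The directions depended in part on how arrays were scaled. The ERCC centring used 1 probe set, which varied between arrays of the same group. Its log2 intensity was 5.64 to 6.01 with melatonin and 5.92 to 6.06 in controls of HGC-27. In HCT-8 cells these ranges were 2.97 to 3.23 and 3.15 to 3.48, and in HepG2 cells 4.75 to 5.02 and 4.45 to 4.97. In Huh-7 cells the melatonin arrays lay within the range of the controls. The part of this spread in the lost calls and turned directions was not tested. Centring on the 1 ERCC spike-in probe set that lay above the median on every array moved the median change of all genes to 0.14 in HGC-27 cells and 0.20 in HCT-8 cells, where 3 and 0 of the 10 genes were then lower (4.33% and 1.35% of all genes), and to -0.16 in Huh-7 cells and -0.20 in HepG2 cells, where 8 and 5 were lower (27.1% and 6.67% of all genes). Under this centring 1 gene was higher in HGC-27 (19.3% of all genes), 2 in HCT-8 cells (20%), 0 in Huh-7 cells (14.7%) and 0 in HepG2 cells (1.02%). In HCT-8 cells 6 of the 8 genes with a change below 0 then lay above it, none of them called: HSP90AA1 (0.07), BAG3 (0.06), HSP90AB1 (0.08), HSPA8 (0.12), HSPD1 (0.18) and HSPA4 (0.19). HSPB1 and HSPE1 stayed below 0 there, at -0.02 and -0.35, and were not called. In HGC-27 cells HSPA8 moved to 0.05, and HSPB1 (-0.26), HSP90AB1 (-0.31), HSPH1 (-0.29) and HSPD1 (-0.12) stayed below 0 but were no longer called. In HepG2 cells HSP90AA1 (-0.77) was no longer called, whereas HSPA8 (-1.72), BAG3 (-0.89) and DNAJB1 (-1.02) then were. The HepG2 values and counts of this centring include melatonin replicate 1, and none is given without it. With the deposited scaling and without that array, HSPA8 (-0.61) and BAG3 (-0.47) were called and DNAJB1 (-0.12, adjusted p = 0.201) was not. Of all genes called in HGC-27 cells, 52.8% were higher with the deposited values, 33.1% after centring on the array median and 81.7% after the ERCC centring. These shares were 52.5%, 49.5% and 93.7% in HCT-8, 46.4%, 35% and 35.2% in Huh-7, and 51.3%, 43.3% and 13.2% in HepG2 cells.

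HSP90AA1, the stress-inducible cytosolic HSP90, was lower in every line with the deposited scaling, and lay at 0.07 in HCT-8 cells after the ERCC centring. Its log2 intensities were 8.18, 8.31 and 8.32 in melatonin-treated HGC-27 cells, against 9.01, 8.94 and 9.04 in control cells. In Huh-7 cells they were 8.09, 8.02 and 8.14 with melatonin and 8.85, 8.98 and 8.97 in controls. The groups were far apart in both lines, and the changes were -0.73 ± 0.05 (SE) in HGC-27 (adjusted p = 2.11e-05) and -0.85 ± 0.06 in Huh-7 cells (adjusted p = 7.12e-06). In HCT-8 cells the arrays gave 7.98, 7.98 and 7.94 with melatonin and 8.14, 8.07 and 8.20 in controls, a change of -0.17 ± 0.06 that passed narrowly (adjusted p = 0.0471). In HepG2 cells they gave 7.99, 7.86 and 7.88 with melatonin and 8.42, 8.46 and 8.45 in controls, and here melatonin replicate 1 was not the lowest array. The HepG2 change was -0.53 ± 0.08 (adjusted p = 0.0160), and -0.58 ± 0.06 without replicate 1 (adjusted p = 2.94e-04).

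The fall of HSP90AA1 differed between lines. Fitting all 24 arrays together, the test of any difference between the 4 lines gave an adjusted p of 8.99e-06, a test passed by 34.3% of all genes. The change in HGC-27 minus that in HCT-8 cells was -0.56 (95% interval -0.73 to -0.39, adjusted p = 1.10e-04), and the change in HCT-8 minus that in Huh-7 cells was 0.68 (0.51 to 0.85, adjusted p = 3.78e-06). Its 2 probe sets gave changes of unlike size. The set 11732996_at fell by 1.06 in HGC-27 and 1.36 in Huh-7 cells, and the set 11758308_s_at, whose probes are shared by several transcripts of a gene or family, fell by 0.40 and 0.34. In HCT-8 cells only 11732996_at was called (-0.26, against -0.07 for 11758308_s_at). A further set that the annotation gives to HSP90AA1 and its pseudogenes together, and that entered no test, changed by -0.42 in HGC-27, Huh-7 and HepG2 cells and by -0.11 in HCT-8 cells, so signal of near-identical copies may enter the values of this gene.

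HSP90AB1, the constitutive cytosolic HSP90, was lower in HGC-27 and Huh-7 cells. It averaged 10.52 ± 0.01 with melatonin and 10.98 ± 0.03 in controls of HGC-27 (SD, n = 3 each), a change of -0.46 (adjusted p = 5.18e-05). In Huh-7 cells it averaged 9.47 ± 0.01 with melatonin and 10.20 ± 0.02 in controls, a change of -0.73 (adjusted p = 4.07e-06). The change in HCT-8 minus that in Huh-7 cells was 0.57 (95% interval 0.20 to 0.94, adjusted p = 0.0271). In HCT-8 cells the change of -0.16 ± 0.06 was not called (adjusted p = 0.0701), although the groups did not overlap. In HepG2 cells the melatonin arrays gave 9.90, 10.65 and 10.68, against 10.79, 10.89 and 10.87 in controls, a change of -0.44 ± 0.22 (adjusted p = 0.307). Replicate 1 made most of that distance, and without it the change was -0.19 ± 0.06 (adjusted p = 0.0541). Only 1 probe set reads HSP90AB1 alone, and a set shared with a pseudogene changed by -0.44 in HGC-27 cells, -0.18 in HCT-8 cells, -0.66 in Huh-7 cells and -0.36 in HepG2 cells (-0.19 without replicate 1). Within arrays, HSP90AA1 minus HSP90AB1 ran from -2.36 to -2.20 with melatonin and from -2.02 to -1.96 in controls of HGC-27, without overlap, and the melatonin and control ranges overlapped in the other lines with all arrays. In HepG2 cells the mean shift was -0.09 with all arrays, where replicate 1 lay above the controls at -1.91. Without replicate 1 the 2 melatonin arrays lay at -2.795 and -2.796, below the controls at -2.43 to -2.37, and the shift was -0.39, beside -0.27 in HGC-27 cells.

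HSPA8, the constitutive cytosolic HSP70, was lower in Huh-7 cells. Its intensities there were 7.70, 7.57 and 7.59 with melatonin and 8.21, 8.32 and 8.30 in controls, a change of -0.65 ± 0.06 (adjusted p = 2.71e-05). In HepG2 cells the melatonin arrays gave 4.76, 7.33 and 7.45, against 7.93, 8.08 and 7.98 in controls. Replicate 1 minus the mean of the other melatonin arrays was -2.63, the widest such gap among the 10 genes. The HepG2 change was -1.48 ± 0.71 and not called with all arrays (adjusted p = 0.294), and -0.61 ± 0.07 and called without replicate 1 (adjusted p = 5.98e-04). The gene means in HGC-27 and in HCT-8 cells moved by -0.10 ± 0.07 and -0.12 ± 0.05 and were not called (adjusted p = 0.275 and 0.111).

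Single probe sets of HSPA8 gave another picture in HGC-27 cells than their mean. The 4 sets with control means above 9 on the log2 scale (11.31 to 12.03) fell by 0.28 to 0.34 in HGC-27 cells and all 4 were called. In HCT-8 cells the same 4 changed by -0.27 to -0.13 and 3 were called. The other 3 sets had control means of 1.62 to 8.22 in HGC-27 cells, and among them 11756623_at rose by 0.54 (adjusted p = 0.0169) from a control mean of 2.88. The mean over 7 sets therefore weights dim sets and bright sets alike, and in Huh-7 cells, where all 7 sets fell (-1.16 to -0.34), it was called.

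HSPA4, an HSP110 family protein that resets HSP70, was lower in HGC-27 and Huh-7 cells. It averaged 6.26 ± 0.02 with melatonin and 6.82 ± 0.05 in controls of HGC-27 (change -0.56, adjusted p = 3.05e-05). In Huh-7 cells it averaged 7.18 ± 0.04 with melatonin and 7.76 ± 0.07 in controls (change -0.57, adjusted p = 4.38e-05). All 4 of its probe sets were called lower in both lines. In HCT-8 cells the groups overlapped and the change was -0.05 ± 0.05 (adjusted p = 0.517), which differed from the changes in HGC-27 (difference of HGC-27 minus HCT-8 -0.51, 95% interval -0.72 to -0.30, adjusted p = 0.00186) and Huh-7 cells (HCT-8 minus Huh-7 0.53, 0.32 to 0.74, adjusted p = 6.75e-04). In HepG2 cells the change of -0.44 ± 0.12 was not called (adjusted p = 0.0820), and without replicate 1 it was -0.33 ± 0.06 (adjusted p = 0.00469).

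HSPH1, the stress-inducible HSP110, was the only 1 of the 10 genes called in opposite directions in different lines. Its intensities were 7.54, 7.59 and 7.53 in melatonin-treated HGC-27 cells, against 7.98, 8.03 and 7.96 in controls. In HCT-8 cells they were 8.45, 8.31 and 8.33 with melatonin and 8.16, 8.20 and 8.14 in controls. The groups did not overlap in either line, with melatonin below control in HGC-27 and above it in HCT-8 cells. The changes were -0.44 ± 0.04 (adjusted p = 9.02e-05) in HGC-27 and 0.20 ± 0.06 (adjusted p = 0.0313) in HCT-8 cells. In Huh-7 cells the intensities were 8.04, 8.07 and 8.04 with melatonin and 8.42, 8.47 and 8.34 in controls, a change of -0.36 ± 0.05 (adjusted p = 5.87e-04).

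The difference between lines was itself past the threshold for HSPH1 (adjusted p = 0.00168 over 4 lines). The change in HGC-27 minus that in HCT-8 cells was -0.63 (95% interval -0.89 to -0.38, adjusted p = 0.00185), and in HCT-8 minus Huh-7 cells 0.56 (0.30 to 0.82, adjusted p = 0.00265). All 8 probe sets of the gene were called lower in HGC-27 (-0.50 to -0.32) and in Huh-7 cells (-0.43 to -0.26). In HCT-8 cells all 8 lay above 0 (0.12 to 0.29) and 3 were called higher. In HepG2 cells replicate 1 read 8.09, above the other melatonin arrays at 7.59 and 7.62 and above the controls, which averaged 8.03 ± 0.02 (SD, n = 3). The HepG2 change was -0.26 ± 0.15 (adjusted p = 0.364) with all arrays and -0.42 ± 0.06 (adjusted p = 0.00111) without that array. The call of HSPH1 in HCT-8 cells was lost when any of 5 single arrays was left out (adjusted p 0.0554 to 0.0915), with changes of 0.15 to 0.22, and in the joint fit (adjusted p = 0.126), and the HGC-27 change was -0.29 and not called after the ERCC centring.

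DNAJB1, the J-domain protein that brings clients to HSP70 and whose heat induction depends on HSF1, was higher in 3 lines, although after the ERCC centring its change in Huh-7 cells, 0.25, was not called. It read 7.56, 7.54 and 7.60 in melatonin-treated HGC-27 cells, against 7.29, 7.25 and 7.25 in controls. It read 7.79, 7.73 and 7.79 in melatonin-treated Huh-7 cells, against 7.45, 7.44 and 7.39 in controls. Every melatonin array lay above every control array in these lines, and the changes were 0.30 ± 0.04 (adjusted p = 5.60e-04) and 0.34 ± 0.05 (adjusted p = 4.52e-04). In HCT-8 cells it read 6.28, 6.36 and 6.34 with melatonin and 6.12, 6.16 and 6.17 in controls, a smaller change of 0.18 ± 0.05 (adjusted p = 0.0319). In the joint fit, which takes 1 spread per gene from all 24 arrays with HepG2 replicate 1 among them, DNAJB1 was not called in HGC-27 (adjusted p = 0.590), Huh-7 (adjusted p = 0.403) or HCT-8 cells (adjusted p = 0.760), where that fit called 13%, 18.8% and 11% of all genes higher. In HCT-8 cells it was called in 9 of 17 settings, the deposited one included. All 3 probe sets were called higher in HGC-27 and Huh-7 cells, and in HCT-8 cells all 3 lay at 0.17 to 0.19 and none was called singly.

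In HepG2 cells DNAJB1 was not called. The melatonin arrays gave 5.78, 7.75 and 7.78, against 7.82, 7.91 and 7.93 in controls. Replicate 1 minus the mean of the other melatonin arrays was -1.99, and these 2 arrays still lay below every control. The change was -0.78 ± 0.54 (adjusted p = 0.465) with all arrays and -0.12 ± 0.06 (adjusted p = 0.201) without replicate 1. The test of a difference between the 4 lines gave an adjusted p of 0.119 with all arrays and 8.70e-06 without that array. Without it, the change in HGC-27 minus that in HepG2 cells was 0.42 (adjusted p = 2.31e-05) and in Huh-7 minus HepG2 cells 0.46 (adjusted p = 5.10e-06).

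BAG3, a nucleotide exchange factor of HSP70 that links it to selective autophagy and small heat shock proteins, was lower in HCT-8 cells with the deposited scaling. It averaged 6.25 ± 0.04 with melatonin and 6.43 ± 0.06 in controls there (change -0.18 ± 0.06, adjusted p = 0.0426, and 0.06 after ERCC centring). In HGC-27 and Huh-7 cells the groups overlapped and the changes were 0.07 ± 0.07 (adjusted p = 0.471) and -0.07 ± 0.07 (adjusted p = 0.462). In HepG2 cells it read 5.45, 5.97 and 6.06 with melatonin and 6.51, 6.49 and 6.45 in controls. All melatonin arrays were below the controls, with replicate 1 the lowest. The change was -0.65 ± 0.17 (adjusted p = 0.0740), and -0.47 ± 0.06 without replicate 1 (adjusted p = 9.98e-04). Its HepG2 change differed from the others (HGC-27 minus HepG2 0.72, 95% interval 0.40 to 1.04, adjusted p = 0.00248, and 0.53, adjusted p = 2.37e-04, without replicate 1, with 0.48 for HCT-8 minus HepG2 and 0.58 for Huh-7 minus HepG2, adjusted p = 0.0471 and 0.00938), and a single probe set reads the gene.

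**Figure D2:**
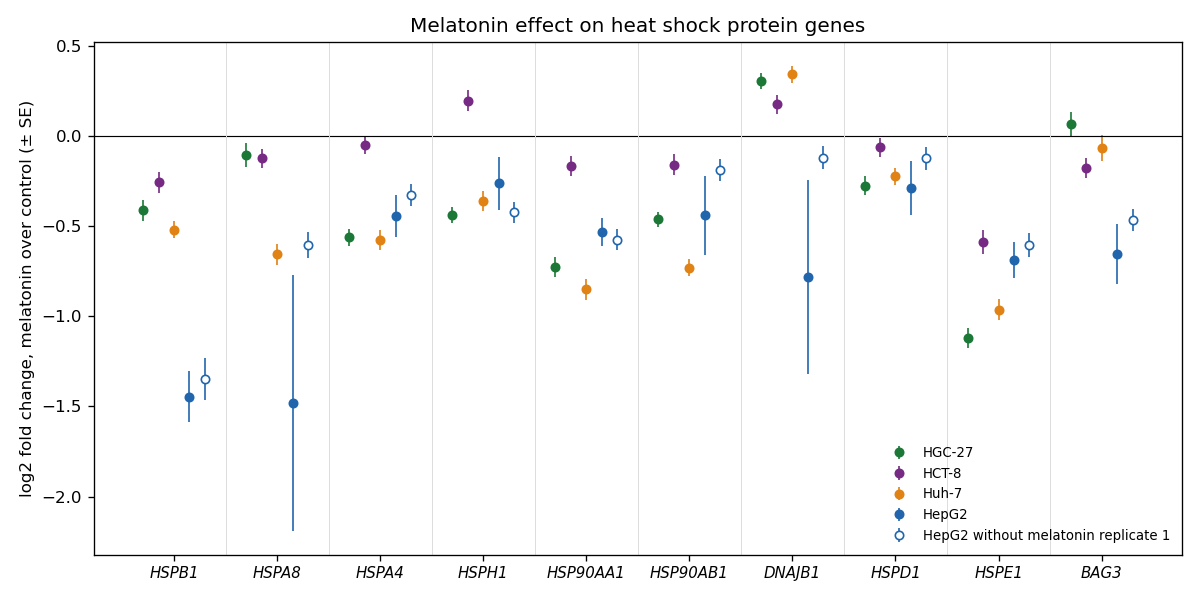
Log2 fold change (melatonin over control, vertical axis) of each heat shock protein gene in each line, with limma standard errors as bars. Filled points use all 6 arrays of a line and the open point leaves out HepG2 melatonin replicate 1. HSPE1, HSP90AA1 and HSPB1 lie below 0 in every line, and DNAJB1 lies above 0 in the 3 lines other than HepG2. With the ERCC centring, HSP90AA1 in HCT-8 cells lies at 0.07.

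HSPE1, the HSP10 lid of the mitochondrial folding chamber, had the most negative change of the 10 genes in each line other than HepG2. It read 7.09, 7.22 and 7.09 in melatonin-treated HGC-27 cells, against 8.31, 8.22 and 8.23 in controls. It read 6.80, 6.92 and 6.94 in melatonin-treated HCT-8 cells, against 7.49, 7.39 and 7.55 in controls. The groups were separated by more than the spread within either in both lines, and the changes were -1.12 ± 0.05 (adjusted p = 3.77e-06), a fall of 54.0%, and -0.59 ± 0.07 (adjusted p = 2.82e-04), a fall of 33.4%. In Huh-7 cells it read 7.45, 7.38 and 7.41 with melatonin and 8.45, 8.29 and 8.40 in controls, a change of -0.96 ± 0.06 (adjusted p = 3.27e-06). In HepG2 cells it read 7.43, 7.60 and 7.75 with melatonin and 8.30, 8.27 and 8.27 in controls. Replicate 1 was the lowest there too, and the change was -0.69 ± 0.10 with it (adjusted p = 0.0167) and -0.61 ± 0.07 without it (adjusted p = 4.44e-04).

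All 3 probe sets of HSPE1 fell in each line other than HepG2, where 2 of 3 were called with all arrays. The bright set 11716351_s_at changed least in every line (-0.86 in HGC-27 cells, -0.33 in HCT-8 cells, -0.64 in Huh-7 cells and -0.44 in HepG2 cells). The change of HSPE1 differed between lines (adjusted p = 0.00100). It was more negative in HGC-27 than in HCT-8 cells by 0.53 (HGC-27 minus HCT-8, 95% interval -0.74 to -0.32, adjusted p = 0.00150), and in HGC-27 minus Huh-7 cells the difference of -0.16 (-0.37 to 0.06, adjusted p = 0.341) did not pass.

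HSPD1, the HSP60 chamber itself, changed less than HSPE1 on the same arrays. It averaged 8.04 ± 0.07 with melatonin and 8.32 ± 0.05 in controls of HGC-27 (change -0.27, adjusted p = 0.00295), and 8.04 ± 0.03 with melatonin and 8.27 ± 0.03 in controls of Huh-7 (change -0.22, adjusted p = 0.00498). In HCT-8 cells it moved by -0.06 ± 0.05 (adjusted p = 0.419) and was not called. In HepG2 cells it read 7.75, 8.30 and 8.18 with melatonin and 8.36, 8.35 and 8.37 in controls, a change of -0.29 ± 0.15 (adjusted p = 0.336), and of -0.12 ± 0.06 (adjusted p = 0.192) without replicate 1. The test of a difference between lines gave an adjusted p of 0.400 for HSPD1 with all arrays and 0.0336 without that array.

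The gap between the members of this mitochondrial pair was measured within each array. HSPE1 minus HSPD1 ran from -1.01 to -0.75 on melatonin arrays and from -0.10 to -0.03 on control arrays of HGC-27, and from -0.67 to -0.58 with melatonin and 0.05 to 0.15 in controls of Huh-7. The mean shift was -0.85 in HGC-27 cells, -0.53 in HCT-8 cells, -0.74 in Huh-7 cells and -0.40 in HepG2 cells (-0.48 without melatonin replicate 1), and melatonin and control arrays did not overlap in any line. This difference shows unequal change of the probe sets of both genes and was not tested. Of the 8 probe sets of HSPD1, the 6 with control means above 9 fell by 0.38 to 0.45 in HGC-27 cells and all were called, whereas the other 2 had control means of 1.44 and 1.64 there. The brighter sets alone therefore gave a larger HSPD1 fall in HGC-27 cells than the mean of 8, still smaller than that of any HSPE1 set (-1.31 to -0.86). Both genes have processed pseudogenes in the human genome, and most of these sets are of the kinds whose probes can match several sequences, so part of the signal may come from near-identical copies.

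**Figure D3:**
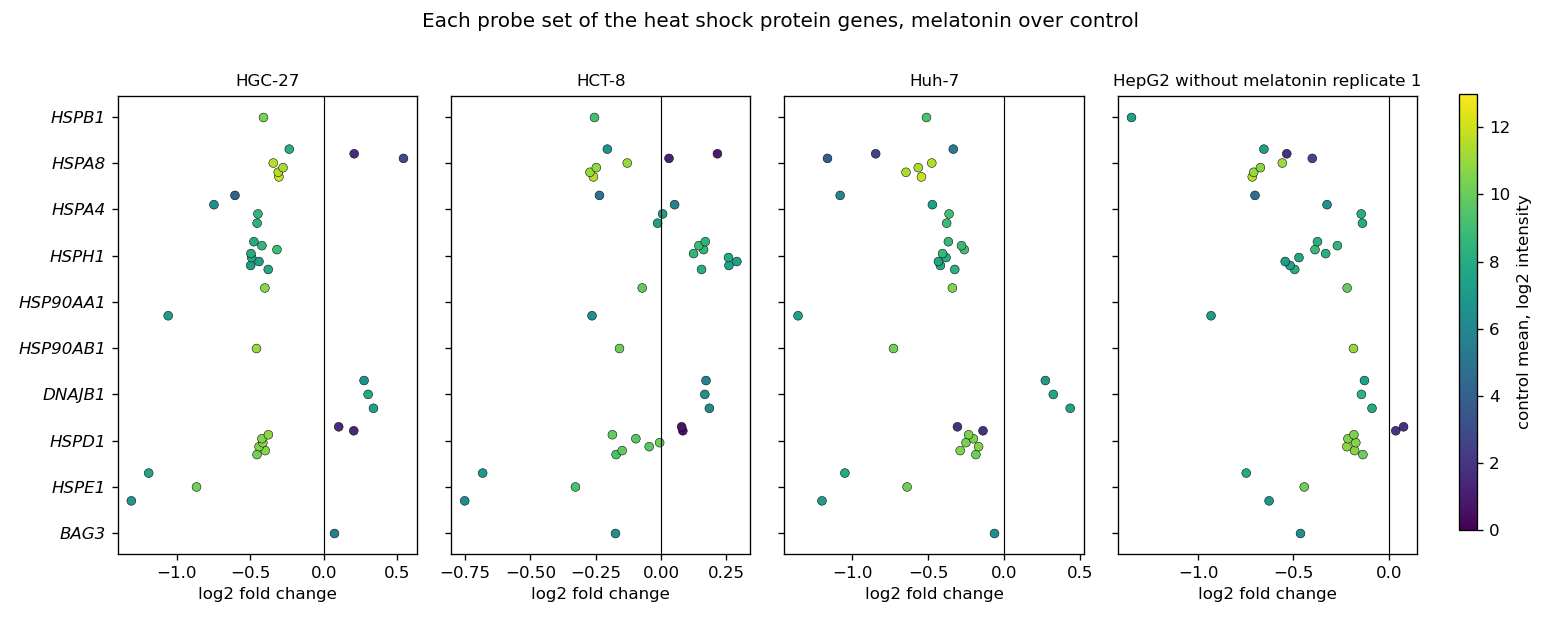
Log2 fold change (melatonin over control, horizontal axis) of each of the 38 probe sets by gene and line, coloured by the control mean on the log2 scale, with HepG2 shown without melatonin replicate 1. The horizontal scale differs between panels. In HGC-27 cells the bright sets of HSPA8 and HSPD1 lie below 0 and their darkest sets lie above 0, while all 8 sets of HSPH1 lie below 0 in HGC-27 and Huh-7 and above 0 in HCT-8 cells.

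Taken singly, 29 of the 38 probe sets were lower and 4 higher in HGC-27 cells, where 16.4% of all probe sets were lower and 18.4% higher. In HCT-8 cells 9 were lower and 3 higher (11% and 14.5% of all), and in Huh-7 cells 31 and 3 (23.1% and 22.4% of all). In HepG2 cells 4 were lower and 0 higher by limma (2.12% and 2.29% of all, and 13 and 0 of the 38 at an unadjusted p below 5%), and 23 and 0 without melatonin replicate 1 (12.8% and 14.3% of all).

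HSPB1, the small heat shock protein HSP27 that keeps unfolded proteins from clumping, was lower in every line and most so in HepG2 cells. It read 5.73, 5.89 and 6.13 in melatonin-treated HepG2 cells, against 7.16, 7.43 and 7.50 in controls. The groups lay more than 1 log2 unit apart with replicate 1 or without it, and the change was -1.44 ± 0.14 with it (adjusted p = 0.00722) and -1.35 ± 0.12 without it (adjusted p = 1.62e-04). In HGC-27 cells it read 9.92, 10.04 and 9.85 with melatonin and 10.35, 10.32 and 10.38 in controls (change -0.41 ± 0.06, adjusted p = 5.30e-04). In HCT-8 cells it read 8.75, 8.80 and 8.81 with melatonin and 9.05, 8.97 and 9.12 in controls (change -0.26 ± 0.06, adjusted p = 0.00915). In Huh-7 cells it read 8.77, 8.72 and 8.74 with melatonin and 9.28, 9.26 and 9.25 in controls (change -0.52 ± 0.05, adjusted p = 2.82e-05). Melatonin arrays lay below all controls in each line.

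The HepG2 fall of HSPB1 differed from that in each other line. The change in HGC-27 minus that in HepG2 cells was 1.03 (95% interval 0.77 to 1.29, adjusted p = 6.59e-06), in HCT-8 minus HepG2 cells 1.19 (0.93 to 1.45, adjusted p = 1.66e-06) and in Huh-7 minus HepG2 cells 0.93 (0.67 to 1.19, adjusted p = 1.58e-05). Without replicate 1 these differences were 0.94, 1.09 and 0.83, all with adjusted p up to 4.59e-06. The gene is read by 1 probe set, of the kind whose probes can match other transcripts, so no second set could be set beside it.

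Over the 10 genes, 6 had a change that differed between the 4 lines: HSPB1, HSPA4, HSPH1, HSP90AA1, HSPE1 and BAG3, where 34.3% of all genes did. Without HepG2 melatonin replicate 1 all 10 passed, where 53.6% of all genes did, and over the lines other than HepG2 alone 8 passed (46.2% of all genes), with DNAJB1 (adjusted p = 0.0536) and BAG3 (adjusted p = 0.111) the exceptions. For HGC-27 minus Huh-7 cells 0 of 10 differed by limma with all 24 arrays (19.3% of all genes), at an unadjusted p below 5% as well, with 95% intervals that ran from -0.37 to 0.06 for HSPE1 to -0.64 to 1.75 for HSPA8. With the other 23 arrays, without HepG2 replicate 1, HSPA8 (difference 0.55, adjusted p = 2.49e-05) and HSP90AB1 (difference 0.27, adjusted p = 0.00138) differed between these lines, both with the larger fall in Huh-7 cells. HGC-27 minus HCT-8 cells gave 4 genes (9.93% of all genes), and HCT-8 minus Huh-7 cells gave 5 (18.5%). Against HepG2 cells, 3 genes differed in HGC-27 (16.4% of all genes), 5 in HCT-8 (12.5%) and 3 in Huh-7 cells (21.1%), and 7 in each without HepG2 melatonin replicate 1 (25.6%, 22.4% and 32.5%).

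HSF1, the main transcription factor of heat shock genes, moved by 0.17 ± 0.08 in HGC-27 (adjusted p = 0.114), -0.02 in HCT-8 cells, 0.03 in Huh-7 cells and -0.49 in HepG2 cells (-0.09 without replicate 1), and was not called in any line. HSBP1, which binds HSF1, moved by -0.15 to 0.18 and was not called either. Of the 4 measured genes of this list, HSF4 alone was called by limma, higher by 0.26 in HGC-27 cells (the list's 1 call at an unadjusted p below 5% too), and it is named here after its value was seen. HSF2 was not analysed here.

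The counts of called genes in the lists that follow stand beside the shares of all genes that were higher and lower, which were 20.9% and 18.7% for HGC-27 cells, 16.6% and 15% for HCT-8 cells, 23.8% and 27.4% for Huh-7 cells and 3.87% and 3.67% for HepG2 cells (16.4% and 14.9% without replicate 1).

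Of 10 other HSP70 and HSP110 genes, 5 rose and 0 fell in HGC-27 (5 and 1 at an unadjusted p below 5%), 4 rose and 2 fell in HCT-8 cells, and 4 rose and 1 fell in Huh-7 cells. In HepG2 cells 1 rose and 1 fell by limma (0 and 0 by the methods' t-test, and 1 and 2 without replicate 1). The share that rose was 50% in HGC-27 cells, against 20.9% of all genes, and 40% in HCT-8 and in Huh-7 cells, against 16.6% and 23.8%. Centring on the array median gave 2 higher and 2 lower in HGC-27 cells (2919 and 5901 of all 18265 genes). HSPA13, an HSP70 of the endoplasmic reticulum and microsomes, rose by 0.93 in HGC-27 cells, 1.10 in HCT-8 cells, 0.87 in Huh-7 cells and 0.64 in HepG2 cells. HSPA4L, a close relative of HSPA4, rose by 0.21 in HGC-27 cells, 0.90 in HCT-8 cells and 1.09 in Huh-7 cells and moved by 0.28 (adjusted p = 0.154) in HepG2 cells. HSPA14, which works with DNAJC2 at the ribosome, fell by 0.41 in HCT-8 cells, 0.64 in Huh-7 cells and 0.71 in HepG2 cells. Of the other genes called in this list, named after their values were seen, HSPA1A rose by 0.20 in HCT-8 and 0.91 in Huh-7 cells, HSPA2 rose by 0.49 in HGC-27 and fell by 0.42 in HCT-8 cells, and HSPA12A rose by 0.24 in HGC-27 cells.

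HSPA1B, a stress-inducible HSP70, rose by 0.32 in HGC-27 cells, 0.31 in HCT-8 cells and 0.87 in Huh-7 cells, while in HepG2 cells it moved by -1.09 (adjusted p = 0.304), and by -0.44 without replicate 1 (adjusted p = 0.00855). It is nearly identical to HSPA1A, so its value is uncertain. Probe sets given to HSPA1A and HSPA1B together, which entered no test, changed by 0.32 and 0.38 in HGC-27 cells, 0.21 and 0.36 in HCT-8 cells, 0.86 and 0.93 in Huh-7 cells, and -0.80 and -1.34 in HepG2 cells (-0.46 and -0.37 without replicate 1).

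Of 19 other J-domain genes of the cytosol and nucleus, 6 rose and 7 fell in HGC-27, 5 and 4 in HCT-8 cells, 6 and 7 in Huh-7 cells, and 1 and 1 in HepG2 cells (2 and 4 without replicate 1). In HCT-8 cells this was 26.3% higher and 21.1% lower, against 16.6% and 15% of all genes, and in Huh-7 cells 31.6% and 36.8%, against 23.8% and 27.4%. These shares lay above those of all genes in both directions, and they rest on 4 to 7 genes each. In HGC-27 cells they were 31.6% and 36.8%, against 20.9% and 18.7%, and the ERCC centring left 7 higher and 2 lower there. DNAJB4, a cytosolic relative of DNAJB1, rose by 0.50 in HGC-27 cells, 0.83 in HCT-8 cells and 1.40 in Huh-7 cells, and moved by 0.33 (adjusted p = 0.271) in HepG2 cells. DNAJC2, a J-domain protein of the ribosome, fell by 0.77 in HGC-27 cells, 0.68 in HCT-8 cells and 1.34 in Huh-7 cells. In HepG2 cells DNAJC2 moved by -0.64 (adjusted p = 0.280), and it was called lower without replicate 1 (adjusted p = 4.30e-05). DNAJC17, a nuclear member, fell in all 4 lines (-1.02 in HGC-27, -0.80 in HepG2, -0.56 in HCT-8 and -0.55 in Huh-7 cells), and DNAJC7, which joins HSP70 and HSP90, fell by 0.30 in HGC-27 and 0.60 in Huh-7 cells.

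The HSP90 co-chaperones that passed the test were mostly lower with the deposited scaling. Of 12 HSP90 co-chaperones, 7 fell and 1 rose in HGC-27, 5 fell and 3 rose in HCT-8 cells, 7 fell and 3 rose in Huh-7 cells, and 1 fell and 0 rose in HepG2 cells (4 and 0 at an unadjusted p below 5%, and 6 and 1 without replicate 1). The list medians were -0.28 in HGC-27 cells, -0.13 in HCT-8 cells and -0.40 in Huh-7 cells. In HepG2 cells the list median was -0.52 with all arrays and -0.23 without replicate 1. With the ERCC centring 2 fell and 1 rose in HGC-27 cells and 0 fell and 3 rose in HCT-8 cells. The joint fit gave 4 lower and 0 higher in HGC-27 cells (10.8% and 13% of all genes) and 1 and 1 in HCT-8 cells (10% and 11%). STIP1, which bridges HSP70 and HSP90, fell by 0.48 in HGC-27 cells, 0.19 in HCT-8 cells and 0.82 in Huh-7 cells. CHORDC1, an HSP90 partner, fell by 0.71 in HGC-27 and 1.85 in Huh-7 cells. NUDC and the phosphatase PPP5C, both of which act with HSP90, also fell in the 3 lines other than HepG2 (-0.77 to -0.37 and -0.74 to -0.32).

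Of 10 BAG and other HSP70 partner genes, 6 fell and 2 rose in HGC-27, 4 fell and 1 rose in HCT-8 cells, and 5 fell and 2 rose in Huh-7 cells. In HepG2 cells 1 fell and 0 rose by limma (2 and 0 at an unadjusted p below 5%, 0 and 0 by the methods' t-test, and 6 and 1 without replicate 1). With the ERCC centring 4 fell and 2 rose in HGC-27 cells and 0 fell and 2 rose in HCT-8 cells. BAG2, a BAG family partner of HSP70, fell in all 4 lines (-0.80 in Huh-7, -0.64 in HepG2, -0.47 in HGC-27 and -0.20 in HCT-8 cells). BAG1, another nucleotide exchange factor, fell by 0.67 in HGC-27 cells, 0.42 in HCT-8 cells and 0.92 in Huh-7 cells. HSPBP1, a nucleotide exchange factor, and SGTA, which handles membrane proteins before insertion, fell in the same 3 lines.

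Of 14 mitochondrial chaperones and proteases, 3 fell and 4 rose in HGC-27, 5 fell and 2 rose in HCT-8 cells, and 7 fell and 5 rose in Huh-7 cells. In HepG2 cells 4 fell and 0 rose by limma (5 and 1 at an unadjusted p below 5%, 0 and 0 by the methods' t-test, and 6 and 2 without replicate 1). The 21.4% lower and 28.6% higher in HGC-27 cells, and the 14.3% higher in HCT-8 cells, were close to the shares of all genes (18.7%, 20.9% and 16.6%). The 35.7% lower in HCT-8 and 50% lower in Huh-7 cells stood against 15% and 27.4% of all genes, and with the ERCC centring 0 fell in HCT-8 cells and 7 fell and 0 rose in Huh-7 cells. GRPEL1, the nucleotide exchange factor of mitochondrial HSP70, fell in all 4 lines (-1.22 in Huh-7, -0.79 in HGC-27, -0.48 in HepG2 and -0.44 in HCT-8 cells). TRAP1, the mitochondrial HSP90, also fell in all 4 (-0.89 in Huh-7, -0.67 in HepG2, -0.48 in HCT-8 and -0.33 in HGC-27 cells). The protease subunit CLPP and the J-domain protein DNAJA3 fell in HCT-8 (-0.40 and -0.29) and Huh-7 cells (-0.65 and -0.70).

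**Figure D4:**
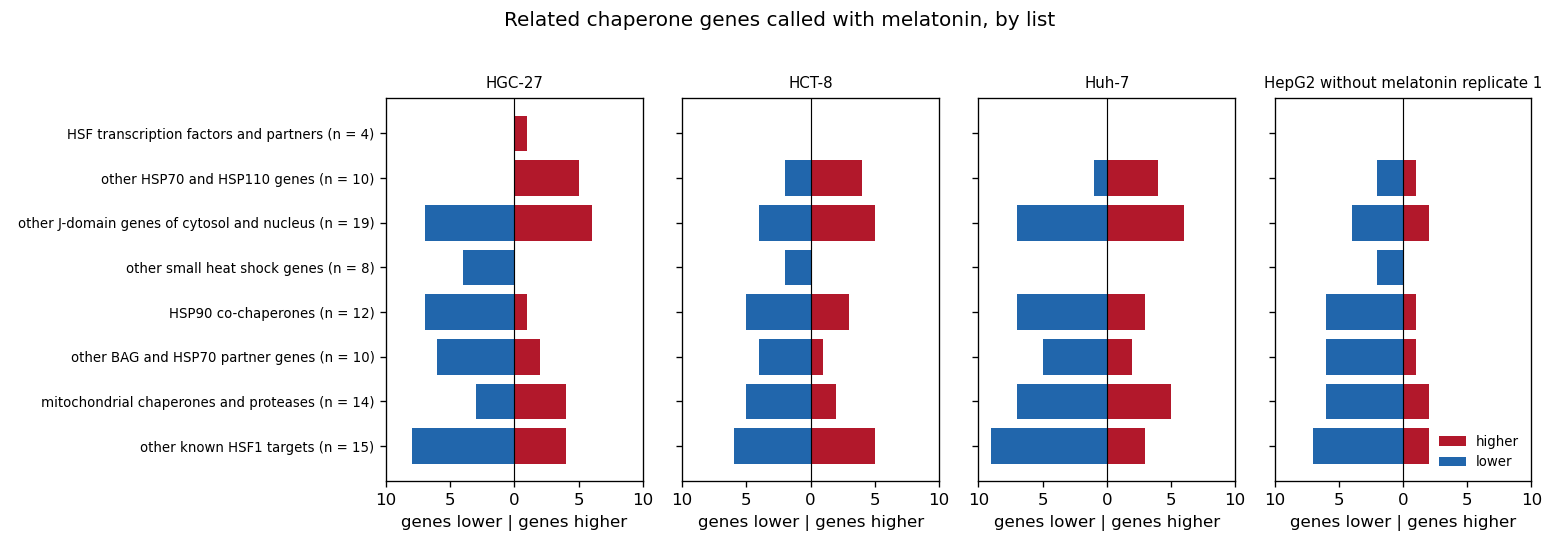
Number of genes called lower (blue, left of 0) and higher (red, right of 0) with melatonin in each list of related chaperone genes and each line, with the number measured after each list name and HepG2 shown without melatonin replicate 1. HSP90 co-chaperones, other BAG and HSP70 partner genes and other known HSF1 targets have more genes lower than higher in each panel. With the ERCC centring the co-chaperones have 0 lower and 3 higher in HCT-8 and 2 lower and 1 higher in HGC-27 cells. The HSF1 targets then have more higher than lower in both of these lines. So do all genes under that centring, with 19.3% higher and 4.33% lower in HGC-27 and 20% and 1.35% in HCT-8 cells.

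Other genes known as HSF1 targets did not all share 1 direction, and with the deposited scaling more were called lower than higher outside HepG2 cells. Of 15, 8 fell and 4 rose in HGC-27, 6 fell and 5 rose in HCT-8 cells, 9 fell and 3 rose in Huh-7 cells, and 0 fell and 0 rose in HepG2 cells by limma (4 and 1 at an unadjusted p below 5%, 0 and 0 by the methods' t-test, and 7 and 2 without replicate 1). With the ERCC centring 2 fell and 5 rose in HGC-27 cells and 0 fell and 5 rose in HCT-8 cells. FKBP4, CHORDC1, DNAJA1 and STIP1 stand in this list and in another one. ZFAND2A, a zinc finger protein induced by arsenite, rose by 0.92 in HGC-27 cells, 0.34 in HCT-8 cells and 0.91 in Huh-7 cells and moved by -0.05 (adjusted p = 0.743) in HepG2 cells. TCP1, a subunit of the cytosolic chaperonin, fell by 0.80 in HGC-27 cells, 0.41 in HCT-8 cells and 0.52 in Huh-7 cells and moved by -0.51 (adjusted p = 0.0539) in HepG2 cells.

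The other small heat shock genes were called in few cases, and those called are named after their values were seen. Of 8, 0 rose by limma in any line, also at an unadjusted p below 5%. In HGC-27 cells 4 fell, namely CRYAB (-0.61), HSPB3 (-0.49), HSPB8 (-0.39) and HSPB7 (-0.31), and in HCT-8 cells 2 fell, CRYAA (-0.22) and HSPB7 (-0.21). In Huh-7 and HepG2 cells 0 fell (1 and 0 at an unadjusted p below 5%), and without replicate 1 CRYAA (-0.64) and CRYAB (-0.31) were lower in HepG2 cells. With the ERCC centring 1 fell in HGC-27 and 0 in HCT-8 cells. HSPB2 moved by -0.13 to 0.12 and was not called.

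Over the 88 genes of all lists together, 31 fell and 23 rose in HGC-27, 26 and 19 in HCT-8 cells, 32 and 23 in Huh-7 cells, and 8 and 2 in HepG2 cells (30 and 9 without replicate 1). The shares that fell were 35.2% in HGC-27 cells, 29.5% in HCT-8 cells, 36.4% in Huh-7 cells and 9.09% in HepG2 cells (34.1% without replicate 1), against 18.7%, 15%, 27.4% and 3.67% (14.9%) of all genes. The shares that rose were 26.1%, 21.6%, 26.1% and 2.27% (10.2%), against 20.9%, 16.6%, 23.8% and 3.87% (16.4%) of all genes. The rises in Huh-7 cells and, with all arrays, in HepG2 cells were near the shares of all genes. Without replicate 1 the HepG2 share lay below that of all genes.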

How the data were processed

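RNA of the 4 cell lines was measured on 24 customized PrimeView arrays carrying ERCC spike-ins. The authors made the deposited log2 intensities by robust multichip analysis (background correction, quantile normalization and summary per probe set), whose version is not given in the sources used here. Whether lines were normalized together is not stated, and array medians varied more from line to line than among arrays of 1 line. All columns were used (0 left out). Of 49495 probe sets, 6 control sets, 1275 with several gene symbols and 2878 with no gene listed were left out of all tests. Gene names came from the platform annotation, which can be old, and start regions from RefSeq on GRCh38.p14.

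The remaining 45336 probe sets were averaged per gene, without a filter or pseudocount. Within each line, limma 3.58.1 (run in R 4.3.3) compared melatonin and control arrays, and p-values were adjusted by Benjamini-Hochberg over all 18265 genes at 5%. Probe sets were fitted singly in the same way over all probe sets. Differences between lines came from 1 limma fit of the 24 arrays, which takes 1 spread per gene. The scripts were checked on simulated data. The number of arrays limits the precision.

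The 10 genes and the 8 lists of related genes were chosen with earlier results of these data known. Named genes were the 10 and their probe sets, HSF1 and HSF2, and of each list up to 4 genes with the highest median absolute change among those no dimmer than the all-gene median in each line. Alternatives were a replicate block, the brightest probe set per gene, a filter at the 25th percentile, repeated quantile normalization, centring on the ERCC probe set or on the array median, the joint fit, a robust spread with an intensity trend, a change of at least 1.5-fold, the methods' t-test, leaving out each array and, chosen after seeing the data, array weights in HepG2.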

Additional observations from a re-analysis of the deposited data

Results flagged for a closer look

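The change of 6 heat shock protein genes differed between the 4 lines by the interaction test of limma over 24 arrays, adjusted over all genes, a test that 34.3% of all genes passed. HSPB1 had an adjusted p of 1.09e-06, with its largest fall in HepG2 cells (-1.44, and -1.35 without melatonin replicate 1). HSP90AA1 had an adjusted p of 8.99e-06, with changes of -0.85 in Huh-7 and -0.17 in HCT-8 cells. HSPA4 had an adjusted p of 8.73e-04, with -0.57 in Huh-7 and -0.05 in HCT-8 cells. HSPE1 had an adjusted p of 0.00100, with -1.12 in HGC-27 and -0.59 in HCT-8 cells. HSPH1 had an adjusted p of 0.00168 and opposite directions, at -0.44 in HGC-27 and 0.20 in HCT-8 cells. BAG3 had an adjusted p of 0.00478, with -0.65 in HepG2 and 0.07 in HGC-27 cells. Without HepG2 melatonin replicate 1 all 6 still passed (53.6% of all genes did), with adjusted p of 6.14e-04 for BAG3, 2.14e-05 for HSPE1 and smaller values for the others. Over the 3 other lines, without HepG2, 5 of them passed (46.2% of all genes did) and BAG3 did not (adjusted p = 0.111).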

How the results depend on the processing

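After centring on the ERCC probe set, 6 of the 8 HCT-8 changes below 0 turned direction. Of these, HSP90AA1 at 0.071 (adjusted p = 0.748) and BAG3 at 0.062 (adjusted p = 0.781) had been called, and HSP90AB1, HSPA8, HSPD1 and HSPA4 (0.079 to 0.191) had not, as HSPA8 in HGC-27 cells (0.048) had not. The counts of lower genes were 3 in HGC-27 cells, 0 in HCT-8 cells and 5 in HepG2 cells (4.33%, 1.35% and 6.67% of all genes), with 0 higher in Huh-7 cells (14.7%). The HepG2 count includes melatonin replicate 1. A change of at least 1.5-fold left 2 lower in HGC-27 cells, 1 in HCT-8 cells and 4 in Huh-7 cells and 0 higher in each of these lines. Of all 18265 genes that setting left 527, 323 and 1291 lower and 785, 507 and 1656 higher in these lines. The joint fit gave 0 higher in HGC-27, HCT-8 and in Huh-7 cells (13%, 11% and 18.8% of all genes), and 9 lower in HepG2 cells. In HepG2 cells that fit, which takes 1 spread per gene from all 24 arrays, called 2534 of the 18265 genes lower. With the replicate number as a block, HCT-8 cells had 0 higher and 2 lower genes and HepG2 cells 1 lower. Of all 18265 genes the block called 2788 higher and 2431 lower in HCT-8 cells and 29 lower in HepG2 cells. Same-numbered samples correlated by -0.04 to 0.14 in their deviations from the group means, not all over 0.1 in any line, so the numbers were not taken as pairs. In HCT-8 cells, the brightest probe set gave 0 higher, repeated quantile normalization 2 lower, and the methods' t-test 1 higher and 2 lower. Of all 18265 genes these settings called 3092 higher, 2766 lower, and 2311 higher and 1923 lower, in that order. Array weights, chosen after seeing the data, gave 7 lower in HepG2 cells, where 2863 of all 18265 genes were lower. Leaving out single arrays gave 0 to 1 higher and 2 to 3 lower in HCT-8 cells, 0 to 7 lower in HepG2 cells (0 without any 1 control, 7 without melatonin replicate 1), and 6 to 10 genes differing between lines (10 without HepG2 melatonin replicate 1, and 9 without melatonin replicate 2 or 3). Of all 18265 genes, 2349 to 2772 were then higher and 1888 to 2592 lower in HCT-8 cells. In HepG2 cells 15 to 2718 were lower. All 60 leave-one-out values in HGC-27 and all 60 in Huh-7 cells kept their side of the threshold, whereas 20 of 60 in HCT-8 and 11 of 60 in HepG2 cells lost their call and 4 in HepG2 cells gained one. The cause of these changes was not tested. Over all genes, 7224 were called in HGC-27 cells, 5765 in HCT-8 cells, 9350 in Huh-7 cells and 1377 in HepG2 cells. The joint fit called 4346 in HGC-27 cells, 3841 in HCT-8 cells and 5854 in HepG2 cells, the ERCC centring 4321 in HGC-27, and the 1.5-fold minimum 1312 in HGC-27 cells, 830 in HCT-8 cells and 2947 in Huh-7 cells. In HepG2 cells the block called 42, the t-test 523, array weights 6053 and leaving out single arrays 21 to 5720.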
